A study of Mus musculus with 59 samples.

Results

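The genes described here are 8 members of the machinery that moves thyroid hormone (TH) into cells, activates or inactivates it, and holds it in the cytosol. They are the deiodinases Dio1, Dio2 and Dio3, the transporters Slc16a10, Slc7a5, Slc7a8 and Slco1c1, and the cytosolic hormone binder Crym. They were chosen by name, as 8 of the 55341 genes listed in each count table, with no threshold on their levels. Deiodinases are selenoenzymes. The enzyme encoded by Dio2 converts the prohormone T4 into the active hormone T3 inside the cell, the one encoded by Dio3 inactivates both, and the one encoded by Dio1 can do either. In brown adipose tissue (BAT), local conversion of T4 by the type 2 enzyme is a known part of the response to cold, where noradrenaline raises cAMP in brown adipocytes. TH enters and leaves cells largely through transporters, of which the monocarboxylate, L-type amino acid and organic anion families are the best known.

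RNA-seq counts came from the BAT of 59 male C57BL/6J mice aged 8 to 12 weeks, 1 library per mouse, in 3 experiments. In the TH experiment, mice were fed propylthiouracil (PTU), which blocks hormone synthesis and was given to every mouse of the experiment, and then received an injection of T3 with T4. The wild-type (WT) groups were WT PTU, with no TH, and WT TH 3h, 6h, 12h and 24h after the injection, with 4 mice each, and the BATKO groups were BATKO PTU and BATKO TH 24h, with 5 mice each. In the temperature experiment, whose sample descriptions name an exposure of 24 h, 3 CTRL and 4 BATKO mice were kept at 4 °C and 4 CTRL and 5 BATKO mice at 30 °C. In the diet experiment, whose descriptions name 3.5 d, 4 CTRL and 3 BATKO mice received a high-fat diet (HFD), and 4 CTRL and 2 BATKO mice received chow. BATKO and CTRL are the labels' own names, and the genetic change that they stand for is not given in the sources used here, so that no check of a targeted gene was made. The p-values measure the spread between mice. In bulk tissue, fewer cells of a type and less RNA per cell cannot be told apart.

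The libraries held between 7612059 and 18073627 counts, and those of the BATKO mice in the TH experiment (13593987 to 18073627) were deeper than those of the WT mice (7805938 to 14615534). All levels below are CPM, the counts scaled to a common library size after normalization within an experiment, so that levels are compared within an experiment only. All 6 brown adipocyte markers were detected in every mouse, with a summed level of 5675 to 27420 CPM. The summed level of 6 skeletal muscle markers ranged from 0.639 to 7710 CPM between mice, and that of 5 lymphocyte markers stayed between 0.226 and 4.87 CPM.

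The deiodinases share an in-frame TGA codon, which is read as selenocysteine in the active site. It is shown here because the genes of selenoprotein synthesis are described further on. The coding bases around it, from the GENCODE transcripts of GRCm38, are given with the TGA in capitals.
Dio1, codon 126: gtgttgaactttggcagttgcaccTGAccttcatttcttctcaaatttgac
Dio2, codon 130: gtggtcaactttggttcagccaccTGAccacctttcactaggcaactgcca
Dio3, codon 170: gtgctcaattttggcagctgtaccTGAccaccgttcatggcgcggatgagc
Over these 51 bases, Dio2 was identical to Dio3 at 31 and to Dio1 at 28, and Dio1 to Dio3 at 30.

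Only 3 of the 8 genes were measured well enough to be tested, Dio2, Slc16a10 and Slc7a8, each with a mean normalized count above 10 in every fit. Per kilobase of exon, the level in WT PTU mice was 20.1 ± 14.7 CPM for Dio2, 7.32 ± 0.674 CPM for Slc16a10 and 0.990 ± 0.216 CPM for Slc7a8 (SD, n = 4). Dio2 thus had the highest level of the 8 genes in that group per length. The other 5 were close to 0 in this tissue.

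Among the deiodinases, Dio1 (GRCm38, chr4:107291465-107307169) was counted in 5 of the 59 mice and never above 2 counts. It was at 0 in all 16 mice of the temperature experiment and all 13 of the diet experiment. A count of 0 allows up to 3 counts, which is 0.185 to 0.428 CPM depending on the library and covers counting error only. Dio3 (chr12:110279068-110281097) had a count in 18 of 59 mice, with a maximum of 5. Transcripts of both the type 1 and the type 3 enzyme were therefore at the limit of detection at this depth.

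Slco1c1 (chr6:141524368-141570177), a transporter known from the blood-brain barrier, was counted in 31 of 59 mice with a maximum of 8. Crym (chr7:120186380-120202111) was counted in 27 of 59 mice, with a maximum of 10 in 1 mouse of the temperature experiment. Slc7a5 (chr8:121881150-121907694), the light chain of a large neutral amino acid transporter, had counts in 58 of 59 mice, but only 0 to 23, with a median of 4. The gene lies within the annotated span of the opposite-strand Gm20388, which had 0 counts in all 59 mice and shares no exonic base with it. Without a filter on low counts, none of these 5 genes passed edgeR's quasi-likelihood test in any comparison, and the lowest adjusted p of the 5 was 0.0688, for Slc7a5 in WT mice at 24 h. Slc7a5 had an unadjusted p under 0.05 in 5 of 20 comparisons. On chow its BATKO mice (1.82 and 1.85 CPM) lay above all CTRL mice (0.323 to 0.840 CPM, unadjusted p = 0.00153, adjusted p = 0.107, edgeR's quasi-likelihood test).

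**Figure D1:**
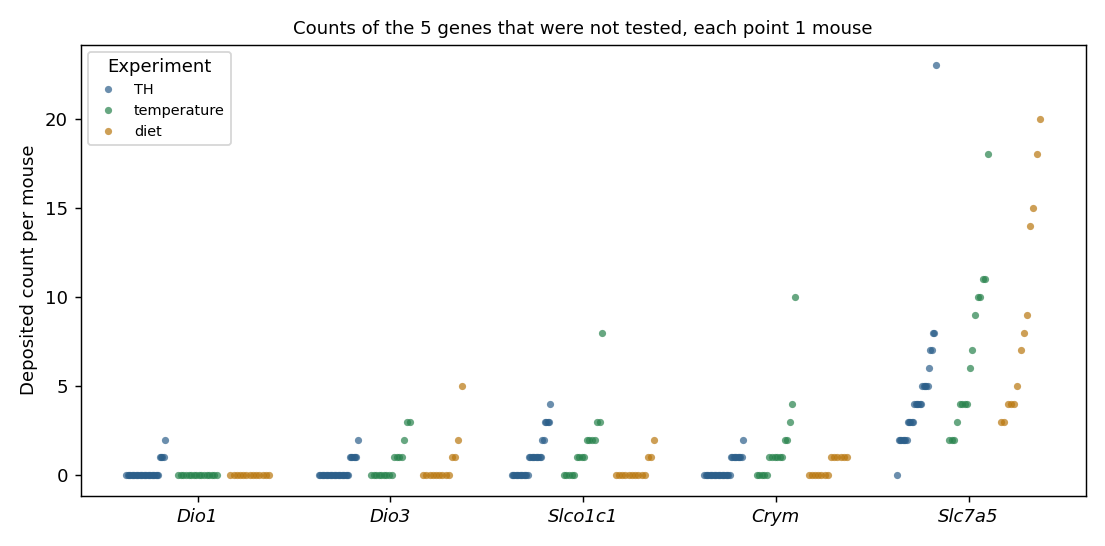
Deposited counts (vertical axis, linear) of the 5 genes that were not tested, each point 1 mouse, coloured by experiment (blue TH, green temperature, ochre diet). No mouse exceeded 10 counts for Dio1, Dio3, Slco1c1 or Crym, and Slc7a5 reached 23.

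Dio2 (chr12:90724552-90738438, minus strand, 2 exons) was the one deiodinase transcript measured in all 59 mice. Of its exonic bases, 1.72% are shared with the opposite-strand Gm26512, which had 0 to 20 counts. The proximal promoter is shown because it is known for a cAMP response element. The 300 bases around its RefSeq start site (GRCm38.p6, chr12:90738989-90739288, minus strand, 5′ to 3′) hold the cAMP response element TGACGTCA, in capitals, 95 bases upstream of the start and 65 bases upstream of a TATAAA match.
Dio2 promoter: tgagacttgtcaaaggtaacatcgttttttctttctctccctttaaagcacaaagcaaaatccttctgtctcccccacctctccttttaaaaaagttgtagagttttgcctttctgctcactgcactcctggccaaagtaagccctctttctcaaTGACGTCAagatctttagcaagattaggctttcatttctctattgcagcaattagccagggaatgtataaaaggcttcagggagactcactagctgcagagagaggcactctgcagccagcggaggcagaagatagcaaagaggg
The RefSeq start lies 600 bases upstream of that of GENCODE. The element was found in 1.79% of the 32851 RefSeq promoter windows of this length, on either strand, and in none of the other 5 members with a window (Dio1, Dio3, Slco1c1, Slc16a10 and Slc7a8). The TH receptor half-site AGGTCA, present in 16.3% of all windows, was in none of the 6, and its direct repeat with a 4-base spacer, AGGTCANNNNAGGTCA, was in 0.0152% of all windows and in none of the 6. These letter matches describe the windows and say nothing of binding.

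In WT mice, Dio2 rose by 3 h after TH and was still called at 12 h. It was at 30.4, 88.1, 114 and 234 CPM in the 4 WT PTU mice and at 259, 459, 464 and 520 CPM at 3 h. All 4 mice at 3 h lay above all PTU mice, and the rise was 3.58-fold (log2 fold change 1.84, SE 0.53, adjusted p = 0.0337, edgeR's quasi-likelihood test, here and below adjusted by Benjamini-Hochberg). Of the 3 genes tested, it was the only one past the threshold at 3 h, where 9.19% of the 13003 genes tested were called. At 6 h the values were 357, 520, 549.5 and 669 CPM, again with no overlap, and the log2 fold change was 2.14 (SE 0.54, adjusted p = 0.00648, edgeR's quasi-likelihood test).

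At 12 h, the range had widened to 180, 279, 503 and 553 CPM, so that 1 mouse lay below the highest PTU mouse, and the log2 fold change was 1.70 (SE 0.53, adjusted p = 0.0221, edgeR's quasi-likelihood test). At 24 h, Dio2 was at 74.5, 218, 269 and 654 CPM. The means were 117 ± 85.7 CPM with PTU, 425 ± 114 after 3 h, 524 ± 129 after 6 h, 379 ± 178 after 12 h and 304 ± 247 after 24 h (SD, n = 4), and the difference at 24 h did not pass the threshold (log2 fold change 1.37, SE 0.53, adjusted p = 0.0510, edgeR's quasi-likelihood test). No difference between neighbouring times passed the threshold. The log2 fold change was 0.30 from 3 h to 6 h (95% interval -0.77 to 1.38), -0.44 from 6 h to 12 h (-1.52 to 0.63) and -0.33 from 12 h to 24 h (-1.41 to 0.75).

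The calls for Dio2 differed in how far they rested on single mice. The rise at 6 h was called whichever mouse was left out, with an adjusted p of 0.00209 to 0.0217. That at 3 h lost its call in 6 of 8 such fits (WT PTU mouse B2, B3 or B4, or 3 h mouse B8, B9 or B11 left out), with log2 fold changes of 1.52 to 2.44 over all 8 fits, and that at 12 h lost it in 5 of 8 (WT PTU mouse B2, B3 or B4, or 12 h mouse B21 or B23). The difference at 24 h became a call without WT PTU mouse B5 or 24 h mouse B24, with log2 fold changes of 1.97 and 1.69. The WT PTU mice alone spanned 30.4 to 234 CPM. The summed brown adipocyte markers were 13953 to 15635 CPM with PTU and 17455 to 20243 CPM at 6 h, without overlap. Of the 6 markers, 1 was called higher at 6 h (Ucp1), 1 lower (Plin1) and 4 were not called, with a median log2 fold change of -0.04. At 3 h 1 was called higher, and at 12 h 1 higher and 3 lower (median -0.40). The summed endothelial markers were 341 to 348 CPM with PTU, 361 to 387 CPM at 3 h with none called, and 269 to 336 CPM at 12 h with 1 of 5 called lower, without overlap at either time, and 1 of 5 nerve and Schwann cell markers was also lower at 12 h. Their part in the result was not tested.

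In BATKO mice, Dio2 was low and TH did not move it past the threshold. It was at 13.7, 14.4, 15.6, 16.8 and 29.1 CPM in BATKO PTU mice and at 1.49, 10.3, 16.8, 26.5 and 27.6 CPM at 24 h after TH. The groups overlapped, with a log2 fold change of -0.12 (95% interval -1.20 to 0.95). None of the 3 genes tested was called in this comparison, in which 0% of 14178 genes were called by edgeR, 673 having an unadjusted p under 0.05. The response of BATKO mice at 24 h differed from that of WT mice by -1.50 on the log2 scale (SE 0.77, 95% interval -3.08 to 0.07, adjusted p = 0.207, edgeR's quasi-likelihood test), so that a difference between genotypes was not established for Dio2. None of the 3 genes had a called difference in response, against 12.3% of all genes tested.

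Before TH, the highest BATKO PTU mouse (29.1 CPM) was just below the lowest WT PTU mouse (30.4 CPM). Dio2 was 6.51-fold lower in BATKO PTU mice than in WT PTU mice (log2 fold change -2.70, SE 0.56, adjusted p = 8.46e-05, edgeR's quasi-likelihood test). In the same comparison, 70.3% of the genes tested were called, and 2 of the 3 members. The summed brown adipocyte markers were 9809 to 11783 CPM in BATKO PTU mice, against 13953 to 15635 CPM in WT PTU mice, with 4 of the 6 markers called lower and 1 higher, and the summed endothelial markers were 406 to 462 against 341 to 348 CPM, with 4 of the 5 called higher and 1 lower. The labels number the WT mice of this experiment with a B and the BATKO mice without. Whether this marks 2 sets of libraries is not given, and such sets could not be told apart from genotype. The part of tissue makeup and of depth in this difference was not tested.

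The largest log2 fold changes of Dio2 in the 20 comparisons were those in cold. At 30 °C, it was at 0.559, 16.8, 28.4 and 74.2 CPM in CTRL mice, and at 4 °C at 339, 429 and 508 CPM. The lowest mouse at 4 °C lay above all those at 30 °C, and the log2 fold change was 3.83 (SE 0.92, adjusted p = 0.00253, edgeR's quasi-likelihood test). In BATKO mice it was at 6.12, 17.7, 21.6, 24.0 and 79.6 CPM at 30 °C and at 133, 235, 348 and 390 CPM at 4 °C, again without overlap (log2 fold change 3.21, SE 0.80, adjusted p = 0.00432, edgeR's quasi-likelihood test). Both calls held when any 1 mouse was left out.

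The size of the rise was 14.2-fold in CTRL mice and 9.26-fold in BATKO mice, and the difference between them was not beyond the spread (log2 difference -0.62, 95% interval -3.05 to 1.81, adjusted p = 0.823, edgeR's quasi-likelihood test). Both sizes depend on the highest mouse at 30 °C, which was at 74.2 CPM in the CTRL group and at 79.6 CPM in the BATKO group. At 30 °C the group means were 30.0 ± 31.6 CPM in CTRL mice (n = 4) and 29.8 ± 28.7 CPM in BATKO mice (SD, n = 5). At 4 °C they were 425 ± 84.3 CPM (n = 3) and 277 ± 116 CPM (SD, n = 4), and the groups overlapped (log2 fold change of BATKO against CTRL mice -0.62, 95% interval -2.42 to 1.18). Of the 3 genes tested, 2 were called higher at 4 °C in each genotype, against 49.1% of 13267 genes called in either direction in CTRL mice and 40.3% in BATKO mice. No member had a called difference between the cold responses (1.12% of genes called), between the genotypes at 4 °C (2.16%) or between them at 30 °C (0.00754%).

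Ucp1, the uncoupling protein of brown fat and one of the brown adipocyte markers, was at 15563 CPM at 4 °C and 736 CPM at 30 °C in CTRL mice (means), so that the cold also moved the tissue's own marker. Of the 6 brown adipocyte markers, 5 were called higher and 1 lower in cold in CTRL mice, and 5 higher in BATKO mice. In CTRL mice the summed nerve and Schwann cell markers were 197 to 235 CPM at 4 °C and 106 to 131 CPM at 30 °C, those of stroma 201 to 208 and 255 to 359 CPM, and those of lymphocytes 0.737 to 0.903 and 1.65 to 3.28 CPM, each without overlap. Of the 5 nerve and Schwann cell markers, 2 were called higher (S100b and Mbp) and 3 were not called, with a list median log2 fold change of -0.87, and of the 5 stroma markers 2 were called lower. Of 5 endothelial markers 2 were called higher, and of 5 macrophage markers 1 lower. In BATKO mice the nerve (124 to 181 and 96.2 to 140 CPM) and stroma sums (218 to 339 and 240 to 284 CPM) overlapped between the temperatures, with 1 nerve marker called higher and 1 stroma marker lower, 1 macrophage marker higher, and 1 endothelial marker higher and 1 lower. The part of these markers in the cold values of Dio2 and the transporters was not tested. The CTRL mouse with 0.559 CPM of Dio2 had only 7 counts of it, and its summed skeletal muscle markers were the lowest of all libraries (0.639 CPM). The BATKO mouse with 79.6 CPM had the highest (7710 CPM). Other mice at 30 °C went the other way. The BATKO mouse with the lowest Dio2 of its group, 6.12 CPM, had 6971 CPM of muscle markers. The CTRL mouse with the highest Dio2 of its group, 74.2 CPM, had 37.9 CPM of them. The part of muscle in these values was not tested.

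On HFD, Dio2 was not called against chow. CTRL mice were at 30.1, 165, 204 and 242 CPM on chow and at 51.1, 105, 146 and 343 CPM on HFD, with a log2 fold change of 0.01 (95% interval -1.29 to 1.31). BATKO mice were at 258 and 345 CPM on chow and at 211, 269 and 872 CPM on HFD (log2 fold change 0.58, 95% interval -1.12 to 2.27). The highest value of the diet experiment thus came from a BATKO mouse on HFD, and the other 2 mice of its group lay among those on chow. On chow both BATKO mice lay above all 4 CTRL mice (log2 fold change 0.91, 95% interval -0.63 to 2.46), and on HFD the genotypes overlapped (1.48, 95% interval 0.09 to 2.88, adjusted p = 0.884, edgeR's quasi-likelihood test). On HFD only the BATKO mouse at 872 CPM lay above the CTRL mice, and the other 2 lay within their range. On chow the summed macrophage markers (91.3 to 120 against 38.1 to 52.7 CPM), stroma markers (395 to 453 against 258 to 327 CPM) and nerve and Schwann cell markers (88.9 to 89.6 against 109 to 146 CPM) also separated BATKO from CTRL mice, none of these markers being called, and their part in the values was not tested. No member was called in any diet comparison. The share of the 12932 genes called was 3.94% for HFD in CTRL mice, 0.0696% for HFD in BATKO mice and 0% for the difference between these responses, for BATKO against CTRL on HFD and for BATKO against CTRL on chow. By edgeR, 740, 691 and 1024 genes had an unadjusted p under 0.05 in those last comparisons.

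**Figure D2:**
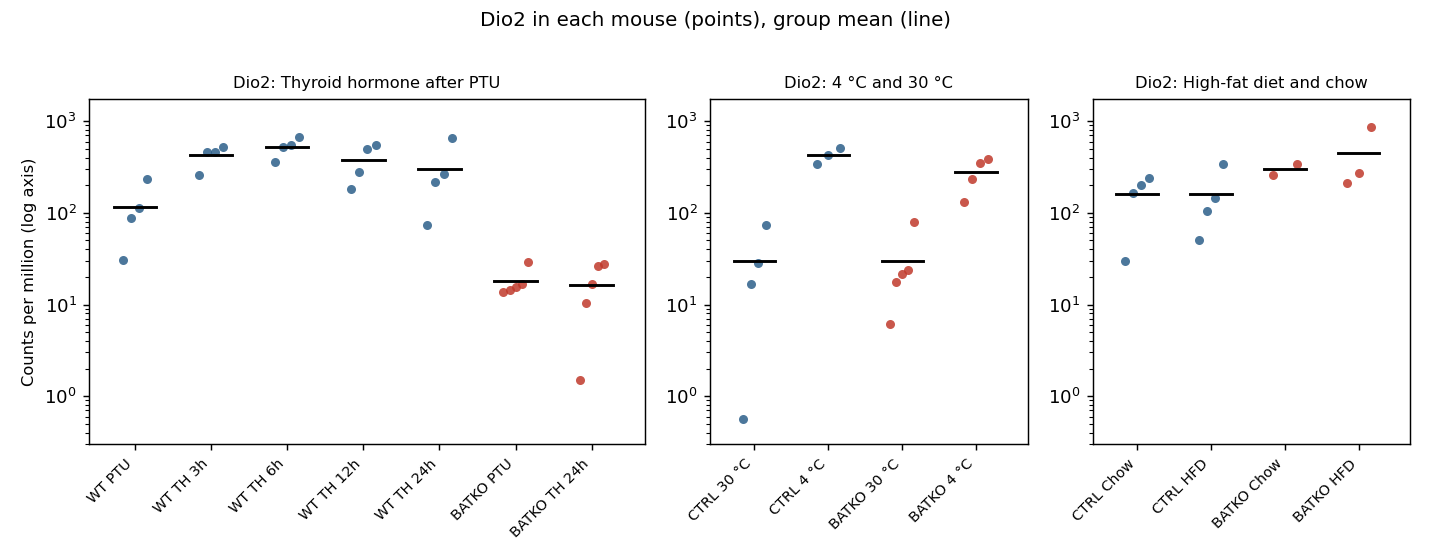
Dio2 in CPM (vertical axis, log scale) in every mouse of the 3 experiments, with 1 point per mouse (blue WT or CTRL, red BATKO) and a line at the group mean. The points at 4 °C lie above all those at 30 °C in both genotypes, and BATKO mice of the TH experiment lie below all WT mice of that experiment.

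The spread of Dio2 between mice of a group was itself large. The pooled within-group SD of log2 CPM was 1.03 in the TH experiment, 1.67 in the temperature experiment and 1.16 in the diet experiment, against a median of 0.259, 0.292 and 0.240 over all genes. It exceeded that of 99.2%, 98.7% and 99.1% of the genes tested. Slc16a10 was far steadier, with an SD of 0.204, 0.388 and 0.257.

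Slc16a10 (chr10:40033532-40142258, minus strand), which encodes a carrier of aromatic amino acids and iodothyronines, was lower at 24 h after TH in WT mice. It was at 47.4, 52.7, 57.0 and 58.4 CPM with PTU and at 32.8, 36.9, 40.5 and 49.1 CPM at 24 h. The groups overlapped in 1 mouse, and the fall was 0.44 on the log2 scale, 1.35-fold (SE 0.11, adjusted p = 0.00393, edgeR's quasi-likelihood test). The means were 53.9 ± 4.96 CPM with PTU, 51.0 ± 0.929 after 3 h, 49.0 ± 3.01 after 6 h, 45.7 ± 3.98 after 12 h and 39.8 ± 6.96 after 24 h (SD, n = 4). Differences from PTU at 3 h, 6 h and 12 h did not pass the threshold (adjusted p = 0.606, 0.324 and 0.132, edgeR's quasi-likelihood test). At 24 h it was the only member called, where 32.7% of genes were called, and at 12 h Dio2 was the only one, against 25.7%. Of the 6 brown adipocyte markers, 4 were called lower and 1 higher at 24 h, with a median log2 fold change of -0.92. Of 5 endothelial markers 1 was called higher and 1 lower, and of 5 macrophage markers 1 was higher. The nerve and Schwann cell list and the stroma list, of 5 markers each, had 1 marker called lower. The part of all these markers in the lower level of Slc16a10 was not tested.

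In BATKO mice, Slc16a10 was at 15.2, 20.2, 22.8, 22.998 and 25.0 CPM with PTU and at 12.0, 14.8, 17.9, 18.1 and 20.0 CPM at 24 h. The log2 fold change was -0.36 (95% interval -0.62 to -0.10), against -0.44 in WT mice, and did not pass the threshold after adjustment (unadjusted p = 0.00806, adjusted p = 0.963, edgeR's quasi-likelihood test). The difference between the genotypes' responses was 0.07 on the log2 scale (95% interval -0.31 to 0.46). All 5 BATKO PTU mice lay below all 4 WT PTU mice, by 2.54-fold on average (log2 fold change -1.34, SE 0.13, adjusted p = 2.25e-10, edgeR's quasi-likelihood test), in the comparison in which 70.3% of genes were called. Here too, the part of tissue makeup and of depth was not tested, and separate sets of libraries could not be told apart from genotype.

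Cold raised Slc16a10 in both genotypes. CTRL mice were at 8.30, 19.8, 20.1 and 23.3 CPM at 30 °C and at 34.5, 37.8 and 47.1 CPM at 4 °C (log2 fold change 1.16, SE 0.25, adjusted p = 0.00121, edgeR's quasi-likelihood test). BATKO mice were at 16.6, 19.1, 19.7, 24.1 and 26.7 CPM at 30 °C and at 46.6, 49.6, 53.6 and 58.8 CPM at 4 °C (log2 fold change 1.29, SE 0.22, adjusted p = 0.000240, edgeR's quasi-likelihood test). Neither pair of groups overlapped, and both calls held without any 1 mouse. The cold responses differed by 0.14 on the log2 scale (95% interval -0.57 to 0.85). BATKO against CTRL mice differed by 0.39 at 4 °C (-0.14 to 0.92) and 0.25 at 30 °C (-0.22 to 0.73), neither called. The lowest CTRL mouse at 30 °C, with 8.30 CPM, was the same mouse that had 0.559 CPM of Dio2.

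With the diet, Slc16a10 was at 25.8 ± 3.27 CPM on chow and 31.2 ± 8.65 CPM on HFD in CTRL mice (SD, n = 4). In BATKO mice it was at 27.9 and 33.9 CPM on chow and at 42.3, 43.6 and 44.0 CPM on HFD. The BATKO groups did not overlap, but the log2 fold change of 0.49 (SE 0.21) missed the threshold (adjusted p = 0.297, edgeR's quasi-likelihood test). BATKO against CTRL mice differed by 0.47 on HFD (95% interval 0.10 to 0.84) and by 0.26 on chow (-0.16 to 0.69), neither called.

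Slc7a8 (chr14:54722209-54781946, minus strand), the light chain of another L-type amino acid transporter, was higher at 6 h after TH in WT mice and was called in no other comparison. It was at 3.83, 4.31, 5.48 and 6.21 CPM with PTU and at 6.00, 14.8, 16.9 and 23.7 CPM at 6 h. A single mouse at 6 h lay within the PTU range, and the log2 fold change was 1.62 (SE 0.42, adjusted p = 0.00775, edgeR's quasi-likelihood test). With Dio2, it made 2 of the 3 genes tested called at 6 h, where 23% of all genes were called. The call held whichever mouse was left out, with an adjusted p of 0.00189 to 0.0399.

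At 3 h the 4 values of Slc7a8 were 4.74, 5.08, 10.2 and 10.4 CPM, and at 12 h they were 5.14, 7.36, 7.49 and 18.7 CPM. At 24 h they were 2.95, 3.35, 3.78 and 9.07 CPM. None of these times differed from PTU past the threshold (adjusted p = 0.426, 0.120 and 0.963, edgeR's quasi-likelihood test). No member was called between neighbouring times, for which 2.8%, 2.95% and 11.4% of genes were called from 3 h to 6 h, 6 h to 12 h and 12 h to 24 h. Without a filter on low counts, Slc7a8 was also called at 12 h against PTU (adjusted p = 0.0340), at 6 h against 3 h (adjusted p = 0.0338) and at 24 h against 12 h (adjusted p = 0.0491, edgeR's quasi-likelihood test).

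In BATKO mice, Slc7a8 was at 2.37 to 9.29 CPM with PTU and at 2.72 to 20.2 CPM at 24 h after TH. The high value was that of 1 mouse, the same one that had the lowest Dio2 of the TH experiment (1.49 CPM), and the other 4 were at 2.72 to 4.62 CPM. The log2 fold change was 0.61 (95% interval -0.38 to 1.59), and that between the PTU groups -0.08 (-1.16 to 1.00). In the temperature experiment it was at 3.49, 3.69, 3.84 and 4.79 CPM at 30 °C and at 1.47, 1.93 and 3.19 CPM at 4 °C in CTRL mice, with 13 to 60 counts per mouse. The groups did not overlap, and the difference was not called (log2 fold change -0.85, SE 0.46, adjusted p = 0.134, edgeR's quasi-likelihood test). A fit of these 2 groups alone called it (adjusted p = 0.0348, edgeR's quasi-likelihood test). In BATKO mice the means were 4.98 ± 2.97 CPM at 4 °C (n = 4) and 5.57 ± 2.33 CPM at 30 °C (SD, n = 5). BATKO against CTRL mice differed by 1.19 at 4 °C (log2 scale, 95% interval 0.22 to 2.16, adjusted p = 0.194, edgeR's quasi-likelihood test). In the diet experiment Slc7a8 was at 2.84, 3.17 and 4.71 CPM in BATKO mice on HFD and at 5.29 and 9.37 CPM on chow, without overlap but not called (log2 fold change -1.06, 95% interval -2.15 to 0.03). In CTRL mice the means were 4.62 ± 3.15 CPM on HFD and 6.11 ± 2.32 CPM on chow (SD, n = 4, log2 fold change -0.39, 95% interval -1.24 to 0.45).

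**Figure D3:**
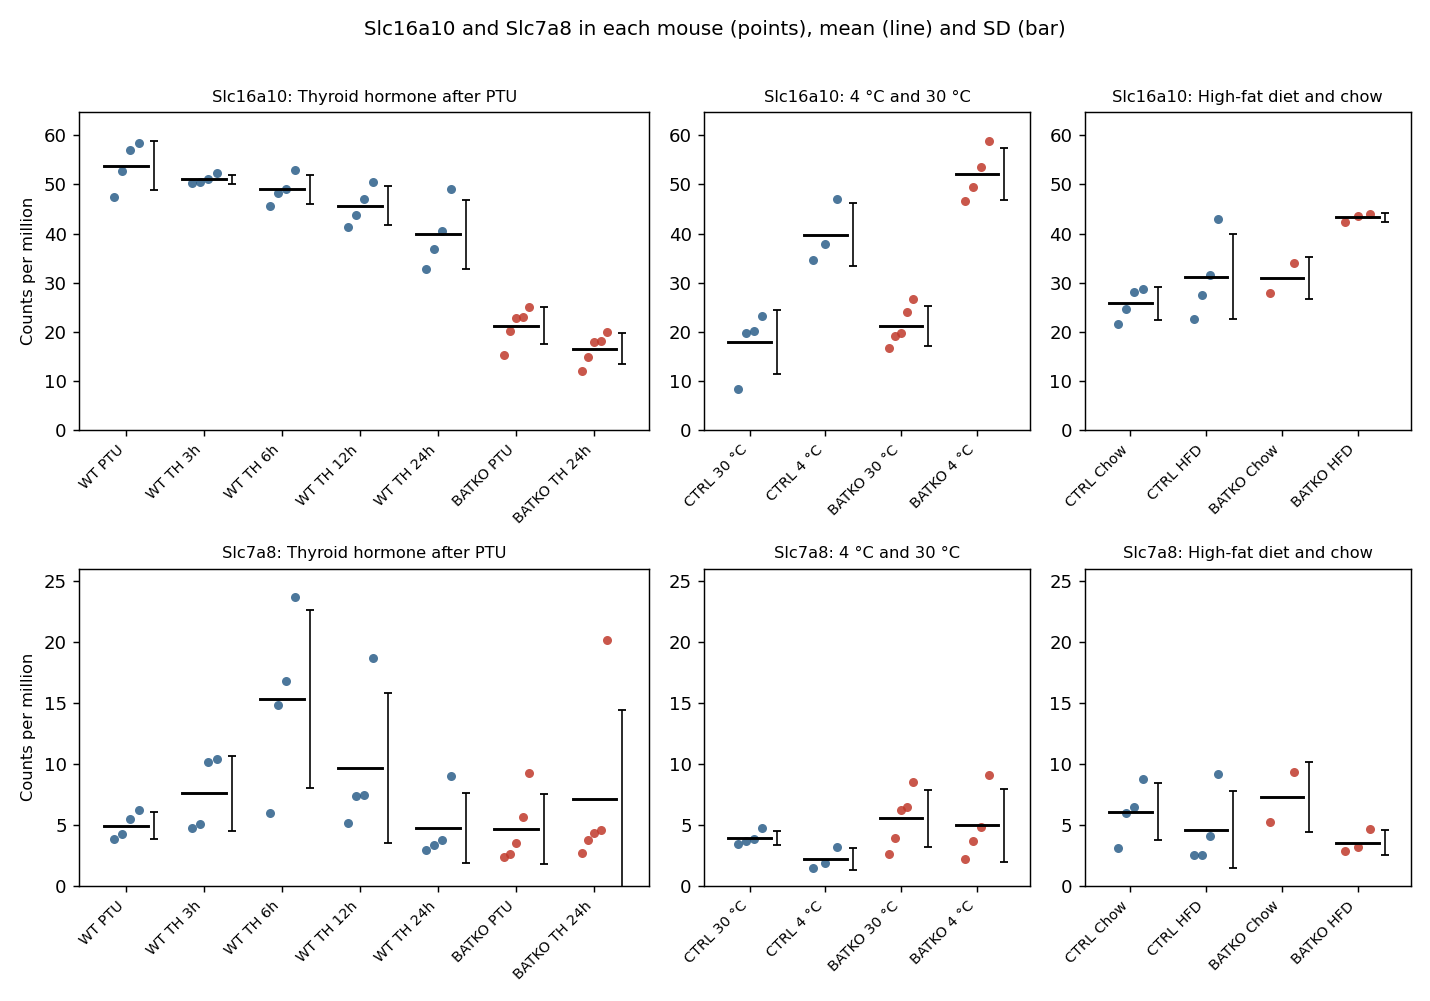
Slc16a10 (top) and Slc7a8 (bottom) in CPM (vertical axes, linear) in every mouse, with 1 point per mouse (blue WT or CTRL, red BATKO), a line at the group mean and a bar of 1 SD to each side (cut off at 0 for Slc7a8 in BATKO TH 24h). The mean of Slc16a10 is 53.9 CPM with PTU and 39.8 CPM at 24 h in WT mice, and the gene is higher at 4 °C than at 30 °C, while Slc7a8 has its highest WT mean at 6 h, 15.3 CPM.

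**Figure D4:**
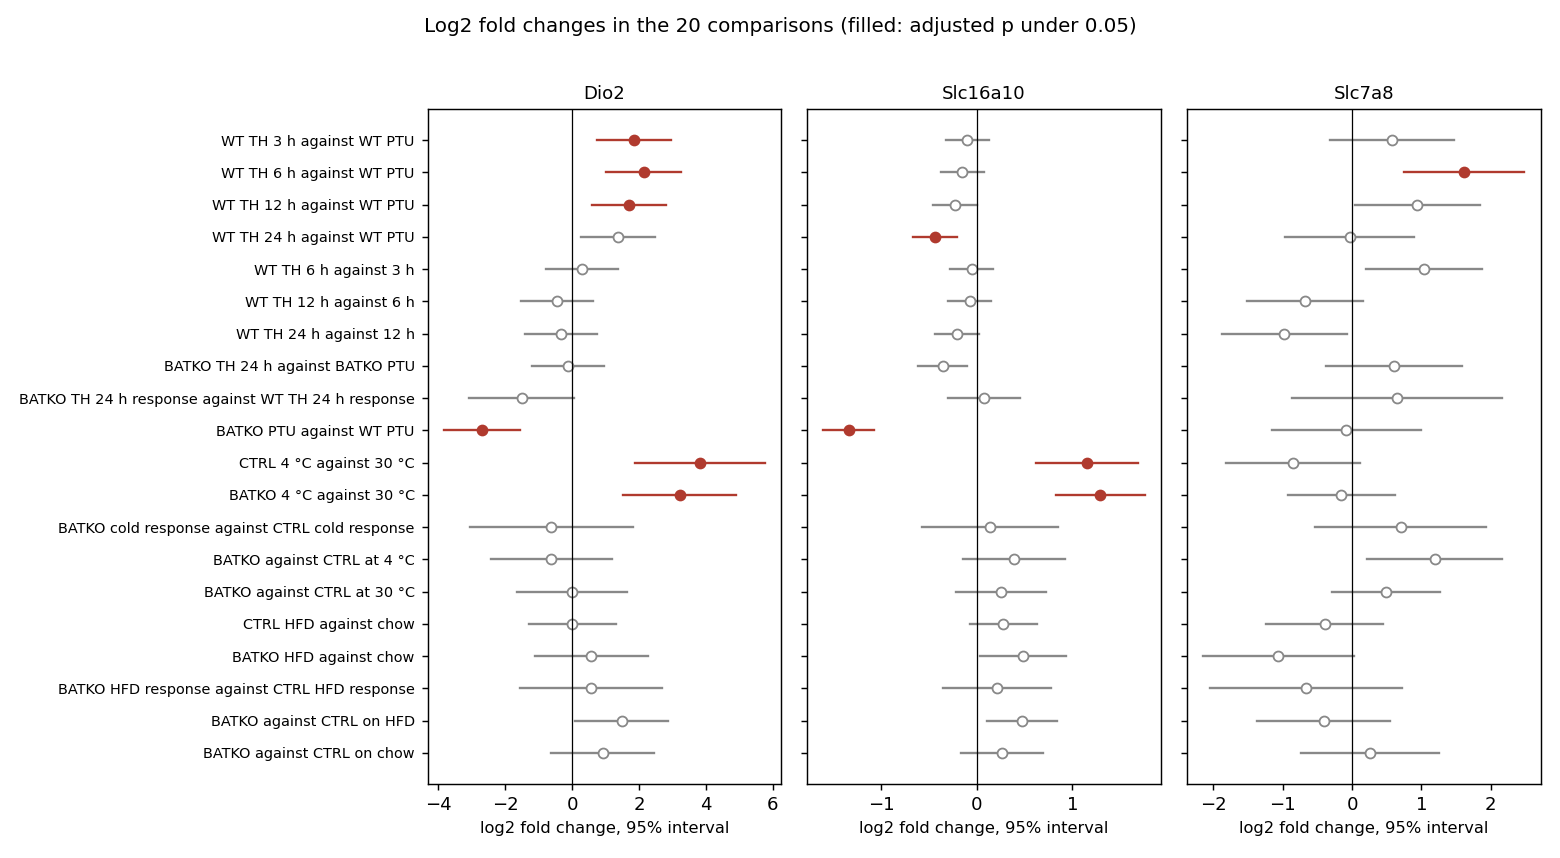
Log2 fold changes (horizontal axes) of Dio2, Slc16a10 and Slc7a8 in the 20 comparisons, with 95% intervals of edgeR's quasi-likelihood fit and filled red symbols where the adjusted p was under 0.05. Dio2 was called in 6 of the 20, Slc16a10 in 4 and Slc7a8 in 1.

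The 3 genes were also compared across mice. Over the 59 mice, with log2 CPM centred within each experiment, Dio2 and Slc16a10 correlated with r = 0.84, while r was 0.16 between Slc7a8 and Dio2 and 0.13 between Slc7a8 and Slc16a10. The mice share treatments and genotypes, so that these values are descriptions. Both Dio2 and Slc16a10 were lower in BATKO PTU than in WT PTU mice. After TH in WT mice, Dio2 was called higher at 3 h, 6 h and 12 h, whereas Slc16a10 was called lower at 24 h. Among 12097 genes measured in all experiments, those most like Dio2 were Noct (r = 0.93), Rnf185 (0.90) and Ucp1 (0.90). Those most like Slc16a10 were Hipk2 (0.91), Dhrs9 (0.90) and Gm32817 (0.90), and those most like Slc7a8 were Papss2 (0.65), Setd1b (0.62) and Isoc2a (0.61).

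Other genes that carry TH were counted beside the members. Of a list of 12 transporters and partners, 4 were abundant enough to be tested: Slc3a2, Slco2b1, Slco3a1 and Slco4a1. Slco4a1 was called higher in WT mice at each of the 4 times after TH, and none of the other 3 was called then, where 9.19%, 23%, 25.7% and 32.7% of all genes were called. The median log2 fold change of the 4 genes was 0.41, 0.27, 0.02 and 0.32 at these times in order, while that of all genes tested stayed between -0.02 and 0.01. Between the PTU groups, 1 of the 4 was called higher in BATKO mice (Slco2b1) and 1 lower (Slc3a2), with a median of 0.68, against 0.02 over all genes, of which 70.3% were called. In cold, 2 were higher (Slco4a1 and Slc3a2) and none was lower in each genotype, with medians of 1.07 in CTRL and 0.28 in BATKO mice, against 49.1% and 40.3% of all genes called.

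The gene called at every time was Slco4a1 (chr2:180456245-180474867), an organic anion transporter. It had 1, 3, 3 and 4 counts in the WT PTU mice, and 67, 110, 201 and 265 counts at 3 h. At 24 h it was at 28.2, 30.5, 30.5 and 32.6 CPM, so that the pooled counts rose 142-fold (95% counting interval 78.9 to 284, exact binomial). This interval covers counting error only and leaves out the spread between mice. The log2 fold change was 5.67 (SE 0.40) after 3 h, 6.84 (SE 0.38) after 6 h, 6.84 (SE 0.38) after 12 h and 7.08 (SE 0.38) after 24 h, with adjusted p-values of 4.89e-09, 8.84e-11, 5.74e-11 and 3.62e-11 (edgeR's quasi-likelihood test).

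In BATKO mice, Slco4a1 was at 0, 0.0618, 0.139, 0.147 and 2.50 CPM with PTU and at 0.0700, 0.348, 2.17, 2.93 and 6.29 CPM at 24 h. The response at 24 h was smaller than in WT mice (log2 difference -5.07, SE 1.27, adjusted p = 0.00824, edgeR's quasi-likelihood test). This difference rested on the BATKO PTU mouse with 2.50 CPM, mouse 4. Without it the difference was -2.42 and was not called (adjusted p = 0.502).

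Cold raised Slco4a1 as well, from 2.48 to 8.75 CPM at 30 °C to 35.6 to 41.0 CPM at 4 °C in CTRL mice, and from 1.80 to 6.54 to 6.68 to 15.5 CPM in BATKO mice (log2 fold changes 2.75, SE 0.40, adjusted p = 3.87e-05, and 1.55, SE 0.37, adjusted p = 0.00311, edgeR's quasi-likelihood test). At 4 °C all 4 BATKO mice lay below all 3 CTRL mice (log2 fold change -1.77, SE 0.39, adjusted p = 0.0279), a call that was lost without BATKO mouse 7 or 12 or CTRL mouse 1 or 2. The difference between the cold responses was not called.

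Slc3a2 encodes the heavy chain with which the light chains of Slc7a5 and Slc7a8 pair. At 30 °C it was at 31.9, 39.9, 40.2 and 46.4 CPM in CTRL mice, and at 4 °C at 169, 231 and 263 CPM (log2 fold change 2.48, SE 0.26, adjusted p = 1.50e-06, edgeR's quasi-likelihood test). BATKO mice rose less, from 34.4, 38.6, 42.5, 54.1 and 86.2 CPM to 88.1, 97.3, 107 and 120 CPM (log2 fold change 1.01, SE 0.22, adjusted p = 0.00203). Slc7a8 was not called in cold, and Slc7a5 was too low to be tested. The smaller rise in BATKO mice was itself past the threshold (difference -1.47, SE 0.34, adjusted p = 0.0486, edgeR's quasi-likelihood test), but 13 of the 16 fits that left out 1 mouse put it above the threshold, with adjusted p-values of up to 0.139. After TH, Slc3a2 was not called at any time, but at 12 h it was called lower with no filter (log2 fold change -0.68, adjusted p = 0.0344) and in a fit of these 2 groups alone (-0.67, adjusted p = 0.0225, edgeR's quasi-likelihood test).

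**Figure D5:**
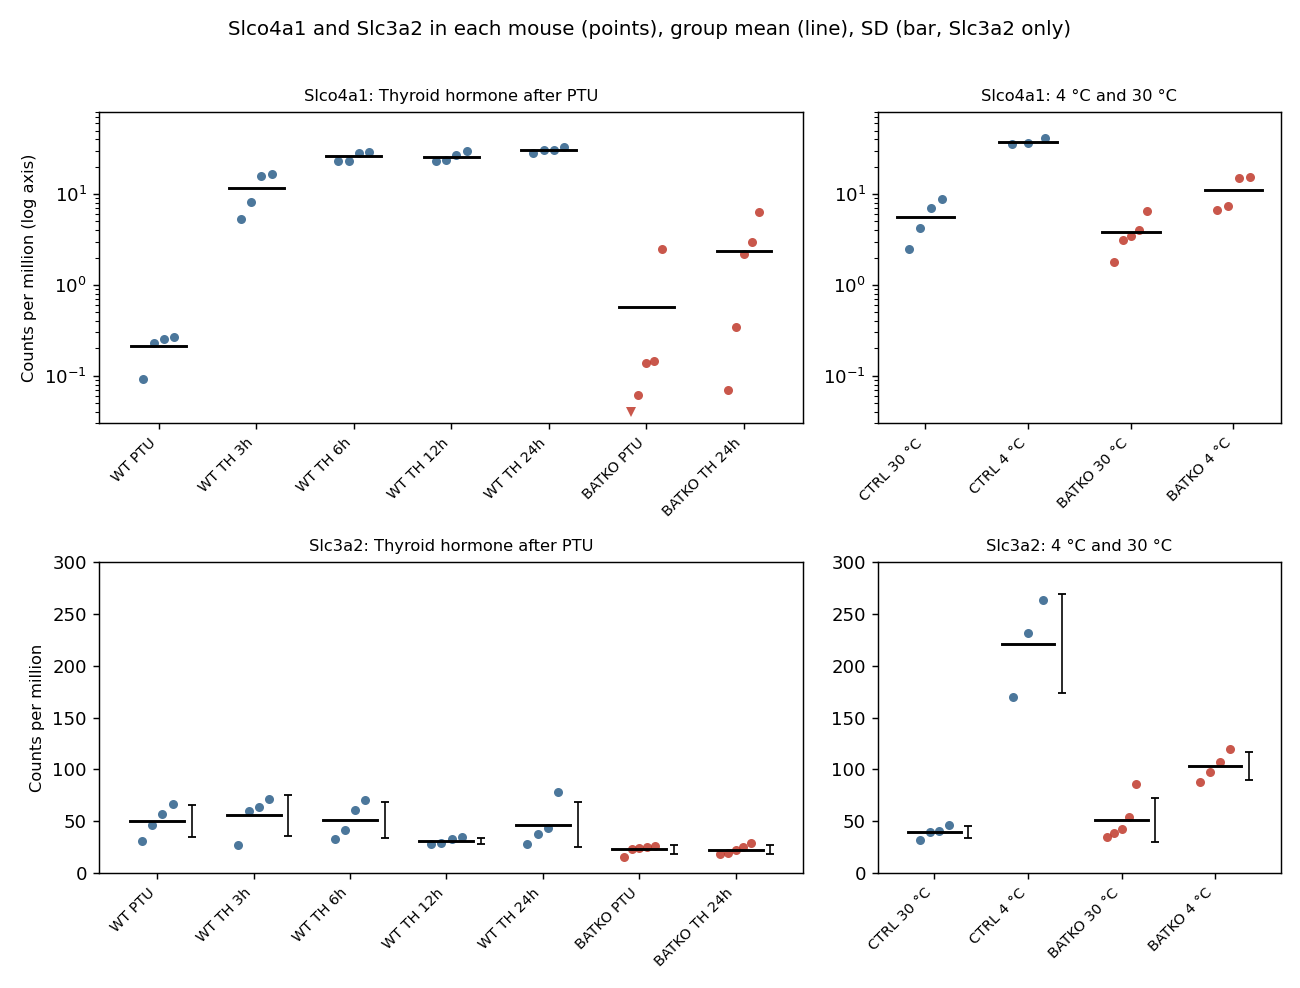
Slco4a1 (top, log axis) and Slc3a2 (bottom, linear axis) in CPM in every mouse of the TH and temperature experiments, with 1 point per mouse (blue WT or CTRL, red BATKO) and a line at the group mean, and for Slc3a2 a bar of 1 SD. The triangle marks the BATKO PTU mouse at 0 counts, and Slco4a1 is at 28.2 CPM or more in all WT mice at 24 h.

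The 7 genes of selenoprotein synthesis, on which the deiodinases depend, were counted after TH in the same way. At 12 h, 1 was higher (Sepsecs, log2 fold change 0.46), where 25.7% of all genes were called, and at 24 h, where 32.7% were, 1 was higher (Pstk, 0.37) and 1 lower, with a median of 0.23 and -0.02 over the list. The call of Pstk was lost with DESeq2 (adjusted p = 0.0536), with no filter (0.0865), in a fit of these 2 groups alone (0.0857) and without WT PTU mouse B3, B4 or B5 or 24 h mouse B24 or B26. The lower one was Sephs2, which makes the selenium donor, from 125 to 89.7 CPM (means, log2 fold change -0.48, SE 0.11, adjusted p = 0.00203, edgeR's quasi-likelihood test). In cold, Sephs2 rose in CTRL mice from 83.9 to 198 CPM (log2 fold change 1.24, SE 0.23, adjusted p = 0.000322) and in BATKO mice from 109 to 196 CPM (0.84, SE 0.20, adjusted p = 0.00364). Altogether 2 of the 7 were called higher in cold in CTRL mice (Sephs2 and Eefsec, list median 0.34), and in BATKO mice 3 were higher (Sephs2, Sepsecs and Secisbp2) and 1 lower (Pstk), with a list median of 0.17. The medians over all genes were -0.01 and -0.02, and the shares called 49.1% and 40.3%. In BATKO mice the call of Secisbp2 was lost with DESeq2 (adjusted p = 0.0555), with no filter (0.0996), in a fit of these 2 groups alone (0.0999) and without mouse 11 or 12 at 4 °C or 13, 14 or 15 at 30 °C. That of Pstk was lost with no filter (adjusted p = 0.112), in a fit of these 2 groups alone (0.0875) and without mouse 8, 11 or 12 at 4 °C or 14, 15 or 16 at 30 °C. Between the PTU groups, 1 was higher in BATKO mice (Scly) and 5 were lower, with a list median of -0.36, where 70.3% of all genes were called. Of the exonic bases of Sephs2, 36.4% are shared with an antisense gene that had at most 4 counts in any mouse, and of those of Pstk 58.8% with Ikzf5, which had 58 to 235 counts.

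The DIO2 protein is tagged for degradation by ubiquitin ligases and rescued by deubiquitinases, and 7 such genes were followed. Wsb1, the adaptor of a ligase that targets DIO2, was lower at 6 h, from 9.26 to 5.99 CPM (log2 fold change -0.64, SE 0.15, adjusted p = 0.00450, edgeR's quasi-likelihood test), and at 12 h, at 5.48 CPM (-0.74, SE 0.16, adjusted p = 0.00140). No other gene of the list was called at either time, where 23% and 25.7% of all genes were called. In cold it fell from 25.6 to 8.25 CPM in CTRL mice and from 23.6 to 11.4 CPM in BATKO mice, and on HFD from 45.4 to 23.8 CPM in CTRL mice (log2 fold changes -1.63, SE 0.31, adjusted p = 0.000413, -1.04, SE 0.26, adjusted p = 0.00486, and -0.93, SE 0.15, adjusted p = 0.00540, edgeR's quasi-likelihood test). For BATKO mice on HFD, Wsb1 was not called in the main fit. It was called lower with DESeq2 (log2 fold change -0.91, adjusted p = 0.00745). By edgeR's quasi-likelihood test it was also called with no filter (-0.89, adjusted p = 0.00151) and in a fit of these 2 groups alone (-0.89, adjusted p = 0.0376).

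Usp33, a deubiquitinase of DIO2, rose in cold from 22.6 to 57.3 CPM in CTRL mice (log2 fold change 1.34, SE 0.19, adjusted p = 3.10e-05) and from 19.6 to 47.2 CPM in BATKO mice (1.27, SE 0.17, adjusted p = 3.01e-05, edgeR's quasi-likelihood test). At 24 h after TH in WT mice it was lower instead, at 27.7 against 41.8 CPM (-0.59, SE 0.12, adjusted p = 0.000546). Of the 7 genes, 2 were called higher (Usp33 and Ube2j2) and 2 lower (Wsb1 and March6) in cold in CTRL mice, and 2 higher (Usp33 and Ube2j2) and 1 lower (Wsb1) in BATKO mice, with list medians of 0.23 and 0.14, against 49.1% and 40.3% of all genes called. The call of Ube2j2 in BATKO mice was lost without mouse 7, 11 or 12 at 4 °C or 13, 15 or 16 at 30 °C. Between the PTU groups 1 was higher in BATKO mice (Ube2j2) and 3 were lower (March6, Ube2j1 and Ube2g2), with a median of -0.17, against 70.3% of all genes called. The antisense Gm43857 shares 15.3% of the exonic bases of Usp33 and had 2 to 24 counts, and the strand setting of the counting is not given in the sources used here.

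Of 6 genes of conjugation and iodotyrosine deiodination, only the sulfotransferase Sult1a1 was abundant enough to be tested. It was lower at 24 h after TH in WT mice, at 31.6 against 80.01 CPM (log2 fold change -1.34, SE 0.18, adjusted p = 9.39e-06, edgeR's quasi-likelihood test). In BATKO mice it was at 61.7 CPM at 24 h and 56.0 CPM with PTU, and the responses differed by 1.48 on the log2 scale (SE 0.35, adjusted p = 0.00551). In the same comparison, 4 of the 6 brown adipocyte markers were called higher (Cidea, Adipoq, Plin1 and Fabp4), with a list median of 0.79, and their part in the result was not tested. In cold it fell from 120 to 38.1 CPM in CTRL mice and from 99.9 to 52.4 CPM in BATKO mice (log2 fold changes -1.65, SE 0.34, adjusted p = 0.000836, and -0.93, SE 0.29, adjusted p = 0.0181, edgeR's quasi-likelihood test). The call in BATKO mice was lost without mouse 11 at 4 °C.

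Of 5 reference genes of the hormone and cold response (Hr, Klf9, Thrsp, Me1 and Ucp1), 3 were called higher at 3 h, 6 h and 12 h in WT mice and 4 at 24 h, and 1 lower at 6 h (Me1, log2 fold change -0.89), against 9.19%, 23%, 25.7% and 32.7% of all genes called at these times. The call of Thrsp at 24 h was lost without WT PTU mouse B3 or 24 h mouse B26. Hr and Klf9, known target genes of TH receptors, rose at all 4 times in WT mice, with log2 fold changes of 3.27 to 4.57 for Hr and 1.31 to 1.89 for Klf9. The response of Hr at 24 h was smaller in BATKO mice (difference -4.07, SE 0.59, adjusted p = 4.59e-05, edgeR's quasi-likelihood test), and that of Klf9 was not called different (-0.65, SE 0.26, adjusted p = 0.103). Without BATKO mouse 8 at 24 h, the Klf9 difference was called (-0.87, adjusted p = 0.0118, edgeR's quasi-likelihood test).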

How the data were processed

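The authors aligned reads of total RNA libraries to GRCm38 with Bowtie (Bowtie2, version 2.3.2.2, in the submitters' processing notes), removed alignments of low quality and deposited raw counts per gene from htseq-count. The gene annotation and strand setting of the counting are not given in the sources used here. All 59 columns were matched to mice by the labels, and 0 were left over.

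The main test was the quasi-likelihood test of edgeR 4.0.16, which uses limma 3.58.1, under R 4.3.3, with TMM normalization. DESeq2 1.42.0 served as an alternative. A gene was tested where its normalized counts averaged more than 10, and p-values were adjusted by Benjamini-Hochberg over all genes tested (threshold 0.05). WT times came from a fit of 20 mice, BATKO comparisons from fits of 30, 16 and 13 mice. The fits were tested on simulated data. No 2 libraries of a group were copies: in the 91 pairs, chi-square divided by its degrees of freedom was at least 6.81.

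The members were taken by name, and they and the lists were chosen with earlier results of these data known. All 8 members were followed in every comparison, and of the list genes at most the 4 with the lowest adjusted p per list and comparison were named as called. Some uncalled ones (Slco3a1, Slc3a2 after TH and the Klf9 difference) are given to complete an account, chosen after their values were seen. One gene of the transporter list is not reported here. The 3 genes most like a member were ranked by Pearson's r. Positions are those of GENCODE M21 (GRCm38), and 6 members had a RefSeq promoter. Alternatives were DESeq2, RLE size factors, no filter, a mean above 50, other sets of mice and each mouse left out.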

Additional observations from a re-analysis of the deposited data

Results flagged for a closer look

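In groups of 4 to 10 mice, 4 of 36 combinations of a tested member and a group held a mouse far from the others by Dixon's criterion. Its chance rate of about 1 in 20 holds for normally distributed values. CPM were used here and the 4 mice were all high, so that the count is not set against that rate. BATKO mouse 17 at 30 °C had 79.6 CPM of Dio2, the other 4 of its group being at 6.12 to 24.0 CPM. BATKO PTU mouse 17 had 29.1 CPM of Dio2, and the others 13.7 to 16.8 CPM. For Slc7a8, WT mouse B27 at 24 h had 9.07 CPM against 2.95 to 3.78 CPM, and BATKO mouse 8 at 24 h after TH had 20.2 CPM against 2.72 to 4.62 CPM. The calls of Dio2 in cold in BATKO mice and between the PTU groups held without the mouse concerned, and without WT mouse B27 Slc7a8 was called lower at 24 h than at 12 h (log2 fold change -1.48, adjusted p = 0.0451, edgeR's quasi-likelihood test).

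No member had a called difference between 2 responses, but 5 of the list genes did. At 24 h after TH, the BATKO response differed from the WT response by -5.07 on the log2 scale for Slco4a1 (adjusted p = 0.00824), by 1.48 for Sult1a1 (adjusted p = 0.00551) and by -4.07 for Hr (adjusted p = 4.59e-05, edgeR's quasi-likelihood test). The Slco4a1 value was -2.42 (adjusted p = 0.502) without BATKO PTU mouse 4. In cold, the BATKO response differed from the CTRL response by -1.47 for Slc3a2 (adjusted p = 0.0486) and by -1.03 for Eefsec, the elongation factor of selenocysteine (adjusted p = 0.0487, edgeR's quasi-likelihood test). Leaving out 1 mouse at a time ended the call of Slc3a2 in 13 of 16 fits and that of Eefsec in 14 of 16 (adjusted p of up to 0.167), and with no filter that of Eefsec was also lost (adjusted p = 0.121).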

How the results depend on the processing

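Of 845 alternative values for the 3 tested members, 36 changed sign, and of 6780 for list genes 376 did, none of them called before or after the change. Of those 845, 823 kept their side of the threshold, 11 gained a call and 11 lost one. The count of members called moved as follows. In a fit of the 2 groups alone it went from 2 to 3 for CTRL mice in cold, by Slc7a8. At 24 h against WT PTU it was 2 with RLE size factors, 2 with no filter and 2 with a mean above 50, since Dio2 then passed the threshold (adjusted p = 0.0496, 0.00323 and 0.0492). With no filter it was also 2 at 12 h, 1 for 6 h against 3 h and 1 for 24 h against 12 h, each by Slc7a8, and 1 for BATKO against CTRL on HFD, by Dio2 (log2 fold change 1.48, adjusted p = 0.0155). In that last comparison, only the BATKO mouse at 872 CPM lay above the CTRL mice. Leaving out 1 mouse at a time, the count ranged from 0 to 1 at 3 h, from 0 to 1 at 12 h, from 1 to 2 at 24 h and from 0 to 1 for 24 h against 12 h (all by edgeR). Over the longest transcript, the WT PTU level per kilobase was 9.98 CPM for Slc16a10 and 1.21 CPM for Slc7a8. The cause of these shifts was not tested.

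No paired analysis was possible because the groups compared share fewer than 2 mouse numbers. Leaving out 1 of the 2 BATKO mice on chow leaves a lone mouse, assumed to vary like the others. At 7612059 to 18073627 counts a library, Dio1, Dio3, Slco1c1, Crym and Slc7a5 lay too low for a test, and Slc7a8 rested on as few as 13 counts in a mouse.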
